A study of Saccharomyces cerevisiae with 10 samples.

Results

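Proline, γ-aminobutyrate (GABA) and arginine are nitrogen sources that budding yeast uses when better ones are missing. The 9 genes described here serve the uptake of proline or GABA or the breakdown of these compounds. PUT3 among them switches on the breakdown of proline. The genes are PUT1, PUT2, PUT3, PUT4, UGA1, UGA2, UGA4, CAR1 and CAR2. They were chosen by name, out of 5913 nuclear protein-coding genes outside Ty elements, and all 9 carried at least 1 protein-bound cluster, as did 5695 of the 5913. A cluster is an interval of the genome that the authors called as RNA bound by protein. Clusters were counted on the gene's own strand, in the coding sequence and in flanks of 100 nt before the start codon and 150 nt past the stop codon, which take in most or part of the untranslated regions.

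The assay was gPAR-CLIP, a transcriptome-wide form of crosslinking in which cells take up 4-thiouracil, ultraviolet light joins the labelled RNA to any protein on it, and RNA is recovered through biotin placed on the proteins. All 10 libraries came from strain BY4742, labelled as WT and MATa, with the alleles his3-delta-1 and leu2-delta-0 and the further alleles lys2-delta-0 and ura3-delta-0, grown in synthetic defined medium with 200 µM 4-thiouracil. The 4 lists used here, each pooled from 2 libraries, came from the light end of a sucrose gradient, which holds material lighter than the small ribosomal subunit: polyadenylated (polyA) RNA of log-phase cells, of cells held for 2 h without glucose and of cells held for 2 h without nitrogen, and also total RNA of log-phase cells. They held 61035, 33345, 38936 and 51574 clusters in that order. One more list, of total RNA from the heavy part, held 115 clusters and none of them lay on the 9 genes. Each list has no value per replicate and no score per cluster, so no difference between conditions can be tested. Every interval below covers counting error only. More clusters on a gene can come from more RNA or from more protein on it, and the 2 cannot be told apart here.

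As background, the pathways meet at glutamate. Proline enters through the permease Put4, and in mitochondria proline oxidase (Put1) and pyrroline-5-carboxylate dehydrogenase (Put2) turn it into glutamate; Put3 is the activator that induces PUT1 and PUT2 when proline is present. GABA enters through the permease Uga4, and GABA transaminase (Uga1) and succinate semialdehyde dehydrogenase (Uga2) turn it into succinate. Arginase (Car1) splits arginine into ornithine and urea, and ornithine transaminase (Car2) starts the route from ornithine to proline. Nitrogen catabolite repression keeps many genes for poor nitrogen sources low while a rich source is present, and GATA-family activators raise them when it is gone.

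The bound stretches that each gene shared most widely between the lists are shown first, because these positions recur in the results. Clusters of the 4 lists that overlapped were merged into sites. For each gene every site found in all 4 lists is given or, where a gene had none, 1 of its sites in most lists. Capitals mark the bases covered by the largest number of lists at once, lower case the rest of the merged site, and the strand of the RNA is shown as DNA of build R64, 5′ to 3′.
PUT1, coding positions 1120 to 1143 (chrXII:426305-426328, plus strand): gtcgcctctcatAAttaccaatcc
PUT1, 5 to 18 nt past the stop codon (chrXII:426621-426634, plus strand): actataATATatac
PUT2, coding positions 18 to 39 (chrVIII:181994-182015, plus strand): cctcaaatctatAtacttcaag
PUT2, 34 to 55 nt past the stop codon (chrVIII:183738-183759, plus strand): tcacttcATCCATcAACTcatg
PUT3, coding positions 997 to 1024 (chrXI:409540-409567, plus strand): cagttgccttcgtatAATTACACAaaac
PUT4, 87 to 100 nt past the stop codon (chrXV:986799-986812, minus strand): cACATATATAAaag
UGA1, coding positions 1015 to 1030 (chrVII:526243-526258, plus strand): aaATTCATTCCAAACa
UGA2, 26 to 16 nt before the start codon (chrII:246984-246994, plus strand): CAAATTTTACa
UGA4, 74 to 87 nt past the stop codon (chrIV:86059-86072, plus strand): taATTATATtatag
CAR1, 35 to 10 nt before the start codon (chrXVI:339909-339934, plus strand): caacaactatatcaAtaacaataact
CAR1, 7 to 34 nt past the stop codon (chrXVI:340952-340979, plus strand): tcATCATCccttttatcaaaataagcat
CAR2, 54 to 63 nt past the stop codon (chrXII:1013829-1013838, plus strand): aTATCTTACa
The capitals were covered in all 4 lists at the PUT1 site past the stop codon, the PUT2 coding site, both CAR1 sites and the UGA1 and CAR2 sites. They were covered in 3 lists at the other PUT1 and PUT2 sites and at those of PUT3 and UGA2, and in 2 at those of PUT4 and UGA4. The UGA1 site was the longest stretch common to 4 lists, with 13 bases, and the CAR2 site followed with 8. Sites past the stop codon are shown for PUT1, PUT2, PUT4, UGA4, CAR1 and CAR2, and sites before the start codon for UGA2 and CAR1.

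**Figure D1:**
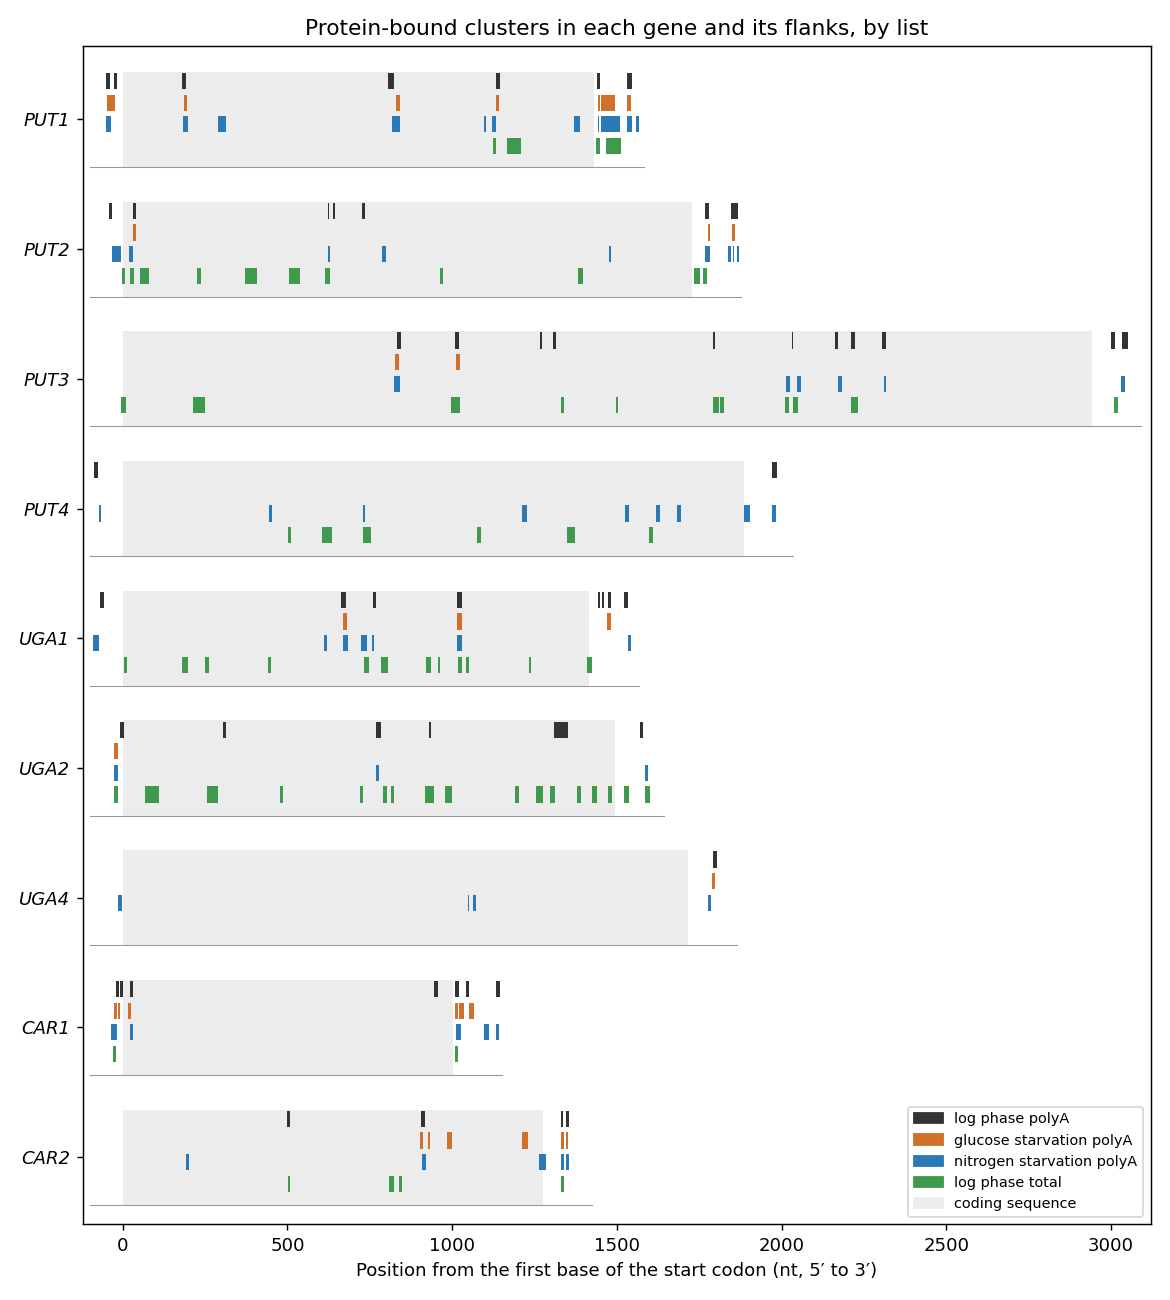
Clusters of the 9 genes drawn to scale from the first base of the start codon (x axis, nt), with 1 row per list in each gene and the coding sequence shaded. The coding sequence of PUT4 held 6 clusters after nitrogen starvation and 6 in total RNA but none in the other lists, and UGA2 held 17 clusters in total RNA, spread over its length.

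Clusters on the 9 genes numbered 53 in the log-phase polyA list, 29 in the glucose list, 59 in the nitrogen list and 67 in total RNA. As shares of the lists these were 0.0868% (95% Wilson interval 0.0664 to 0.114), 0.0870% (0.0606 to 0.125), 0.152% (0.118 to 0.195) and 0.130% (0.102 to 0.165). The share in the nitrogen list was thus the highest, and the glucose list gave the genes a share within counting error of log phase. Per list size, the genes had 1.75 times as many clusters after nitrogen starvation as in log phase (exact conditional 95% interval 1.18 to 2.58), 1.74 times as many as after glucose starvation (1.10 to 2.82), and 1.00 times as many after glucose starvation as in log phase (0.614 to 1.60). The first 2 ratios share the nitrogen list. These intervals are too narrow, because clusters on 1 gene are not independent. The first interval included 1 with clusters narrower than 10 nt left out (1.54, 0.946 to 2.53), and the second included 1 without PUT4 (1.48, 0.916 to 2.42), where the first was 1.54 (1.02 to 2.32).

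The proline permease gene PUT4 (YOR348C, chromosome XV, 986899 to 988782) stood out after nitrogen starvation. It had 2 clusters in log phase, 0 without glucose, 9 without nitrogen and 6 in total RNA. The ratio of nitrogen starvation to log phase per list size was 7.05 (1.46 to 67.1), and PUT4 was the one gene of the 9 whose interval lay above 1; over all 5634 genes with a cluster in either list, 1.12% had such an interval and 0.55% one below 1, where none of the 9 lay. Against the glucose list the ratio was 2.57 with the count of 0 there set at the 3 clusters that it allows. The exact interval ran from 1.69 upward. PUT4 alone of the 9 had an interval above 1, where 0.768% of genes lay above and 0.987% below. Between glucose starvation and log phase none of the 9 genes had an interval off 1, against 0.856% of genes above and 0.446% below. In log phase both PUT4 clusters lay outside the coding sequence, 1 before the start codon and 1 past the stop codon. After nitrogen starvation 6 of the 9 lay within it. Of the 9, 8 did not overlap a log-phase cluster, but with 2 such clusters on the gene few overlaps were possible. Over all mRNA genes 73.0% of nitrogen clusters overlapped one. The clusters are printed because they carry the difference in count. Capitals mark the cluster called after nitrogen starvation, with 4 bases of context on each side, on the minus strand of chromosome XV.
PUT4, 73 to 67 nt before the start codon (chrXV:988845-988859): ctttTTTTTTCtctc
PUT4, coding positions 444 to 452 (chrXV:988327-988343): cgtaCATTATTATttcc
PUT4, coding positions 728 to 736 (chrXV:988043-988059): ctaaACTTTTCCGcggt
PUT4, coding positions 1213 to 1227 (chrXV:987552-987574): ggttCTTCCCCACATTATCaatg
PUT4, coding positions 1526 to 1535 (chrXV:987244-987261): gctaTTTTCTACAAtggc
PUT4, coding positions 1619 to 1630 (chrXV:987149-987168): atcaCCATTACCAACGggta
PUT4, coding positions 1683 to 1695 (chrXV:987084-987104): ctgcCTACATCACCCTAccca
PUT4, 3 to 20 nt past the stop codon (chrXV:986875-986900): aacgCTTTTATGAACATATTCCgata
PUT4, 87 to 97 nt past the stop codon (chrXV:986798-986816): aaaaCACATATATAAaagt
The last of these overlapped the log-phase polyA cluster and the cluster at positions 728 to 736 overlapped one in total RNA. In total RNA all 6 PUT4 clusters were in the coding sequence, and none overlapped the 2 log-phase polyA clusters, which lay outside it.

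Of the other proline genes, PUT1 (YLR142W, chromosome XII, 425186 to 426616) had 7 clusters in log phase, 7 without glucose, 11 without nitrogen and 4 in total RNA. They covered 5.23%, 6.96%, 11.7% and 6.48% of the gene and its flanks. PUT1 was therefore the most densely covered of the 9 genes in both starved lists. For single genes the covered length was also compared: the log2 ratio of covered nucleotides per clustered nucleotide of the list, after 20 nt were added to each covered length, less the median over all genes. On this scale PUT1 stood at +1.45 after nitrogen starvation against log phase, above 98.5% of genes, and at +0.88 after glucose starvation, above 94.1%. Without flanks PUT1 stood at +1.44 after nitrogen starvation and +0.30 after glucose starvation. Its cluster ratios were 2.46 (0.872 to 7.49) and 1.83 (0.548 to 6.12), so neither count ratio differed from 1 beyond counting error. Between 21 and 81 nt past the PUT1 stop codon, both starved lists and total RNA each had 1 wide cluster and the log-phase polyA list had none. PUT2 (YHR037W, chromosome VIII, 181977 to 183704) had 7, 3, 9 and 11 clusters in the same order of lists. Its log2 ratio was +0.75 after nitrogen starvation, -0.46 after glucose starvation and +1.19 between the starvations, where its count ratio was 2.57 (0.641 to 14.8).

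The activator gene PUT3 (YKL015W, chromosome XI, 408544 to 411483) had 11 clusters in log phase and 11 in total RNA, but 2 after glucose starvation and 6 after nitrogen starvation. Its log2 ratio was -1.13 after glucose starvation, lower than all but 4.19% of genes, with a count ratio of 0.333 (0.0358 to 1.52). After nitrogen starvation it was -0.11, and it was positive under 1 of 10 alternatives. Both glucose clusters of PUT3 overlapped log-phase clusters. Against log phase, PUT3 lay near the median of all genes without nitrogen, where PUT1, PUT2 and PUT4 lay above it. The count ratios of PUT1, PUT2 (2.02, 0.668 to 6.37) and PUT3 (0.855, 0.260 to 2.52) in this comparison all had intervals that included 1.

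Among the GABA genes, the transaminase gene UGA1 (YGR019W, chromosome VII, 525229 to 526644) had 8, 3, 7 and 12 clusters in the 4 lists, in the order used above. Its log2 ratio was +0.49 after nitrogen starvation and -0.30 after glucose starvation, and the latter had the other sign under 3 of 10 alternatives. The opposite strand of UGA1 and its flanks also held clusters, 11, 5, 6 and 7 in the same order, which were not counted. The dehydrogenase gene UGA2 (YBR006W, chromosome II, 247010 to 248503) had 6, 1, 3 and 17 clusters. It was the lowest of the 9 genes in both starvation comparisons, at -1.42 after glucose starvation and -0.72 after nitrogen starvation, although its count ratios of 0.305 (0.00663 to 2.51) and 0.784 (0.127 to 3.67) included 1. The permease gene UGA4 (YDL210W, chromosome IV, 84270 to 85985) had 1 cluster in log phase, 1 without glucose, 4 without nitrogen and 0 in total RNA. Its log2 ratio after nitrogen starvation was +1.23 and its count ratio 6.27 (0.620 to 309). The log-phase and glucose clusters of UGA4 were the same site past the stop codon. After nitrogen starvation there were 2 clusters in the coding sequence, 1 before the start codon and 1 past the stop codon. None of these overlapped the log-phase cluster, but with 1 such cluster few overlaps were possible.

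Both arginine genes were covered in every list. Arginase gene CAR1 (YPL111W, chromosome XVI, 339944 to 340945) had 7 clusters in log phase, 6 without glucose, 5 without nitrogen and 2 in total RNA. Its log2 ratios were +0.44 after glucose starvation and +0.40 after nitrogen starvation. It had 2 coding clusters in log phase and 1 in each starved list, and the rest, with both total RNA clusters, lay in the flanks. CAR2 (YLR438W, chromosome XII, 1012501 to 1013775) had 4, 6, 5 and 4 clusters. It was the one gene of the 9 more than 1 log2 unit above the median of all genes after glucose starvation, at +1.06, and it stood at +0.79 after nitrogen starvation. Its count ratio after glucose starvation was 2.75 (0.651 to 13.2). The pair of CAR2 clusters past the stop codon, at 54 to 63 and 72 to 79 nt, was present in all 3 polyA lists, and total RNA had the first of them.

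**Figure D2:**
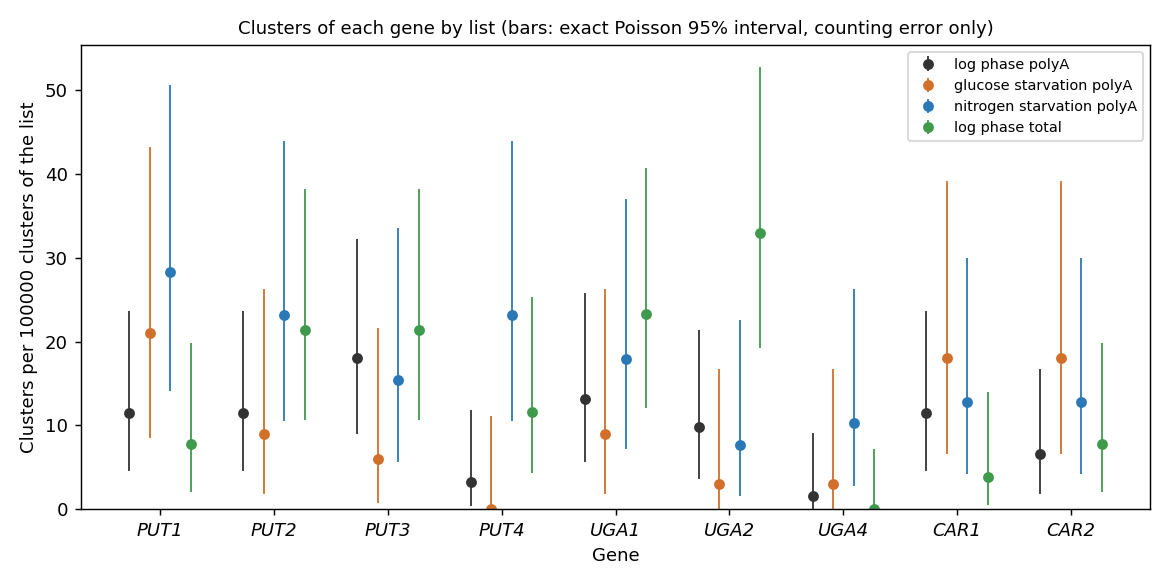
Clusters of each gene (x axis) per 100000 clusters of the list (y axis), with 1 point per list and bars for the exact Poisson 95% interval. PUT4 stood at 23.1 after nitrogen starvation and 3.28 in log phase, and UGA2 at 33.0 in total RNA and 9.83 in log-phase polyA RNA.

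Per length, the order of the genes differed between lists. In log phase CAR1 had the most clusters per kb of gene and flanks, with 5.59 (exact Poisson interval 2.25 to 11.5), followed by UGA1 at 4.80, PUT1 at 4.16, PUT2 at 3.54, PUT3 at 3.45, UGA2 at 3.44 and CAR2 at 2.62. The permease genes were last, PUT4 at 0.937 (0.114 to 3.39) and UGA4 at 0.509 (0.0129 to 2.83). After nitrogen starvation PUT1 led with 6.54 (3.27 to 11.7), PUT2 had 4.55, PUT4 4.22, UGA1 4.20, CAR1 3.99, CAR2 3.28, UGA4 2.03, PUT3 1.88 and UGA2 1.72. In both orders the intervals of neighbouring genes overlapped. After glucose starvation CAR1 led with 4.79 and PUT4 had none, and in total RNA UGA2 led with 9.75 (5.68 to 15.6) and UGA4 had none.

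The fold of single genes was read against all genes. After nitrogen starvation PUT4, PUT1 and UGA4 stood at least 1 log2 unit above the median of all genes and none of the 9 stood as far below it; 4.86% of 5634 genes were this far above and 4.81% this far below. UGA4 was not past the fold with clusters narrower than 10 nt left out (+0.44), with either strand (+0.46) or with 50 nt added (+0.75), while PUT4 and PUT1 were past it in each of these. Of the 9 genes 7 were above the median of all genes, and their own median was +0.75. After glucose starvation 1 gene, CAR2, was past the fold above and PUT3 and UGA2 were past it below, against backgrounds of 4.19% and 6.15% of 5610 genes. With 50 nt added none of these 3 was past the fold (+0.74, -0.82 and -0.92), and without flanks PUT3 was not (-0.74). Here 4 of the 9 were above the median and their median was -0.30. Both comparisons share the log-phase list. Between the starvations PUT4, PUT2 and PUT3 were past the fold on the nitrogen side, against 5.77% of 5472 genes, and none was past it on the glucose side, against 4.75%. PUT3 passed by the smallest margin, at +1.003, and UGA4 was the nearest that did not, at +0.81. PUT2 was at +0.85 with 50 nt added, +0.84 with either strand, +0.76 with flanks of 200 and 300 nt and +0.80 without flanks, and PUT3 was also below the fold under these 4 alternatives, from +0.67 to +0.99, and with clusters narrower than 10 nt left out (+0.92). The median of the 9 genes was +0.77, and it was the same with the ratio of PUT4 set at 2.57.

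**Figure D3:**
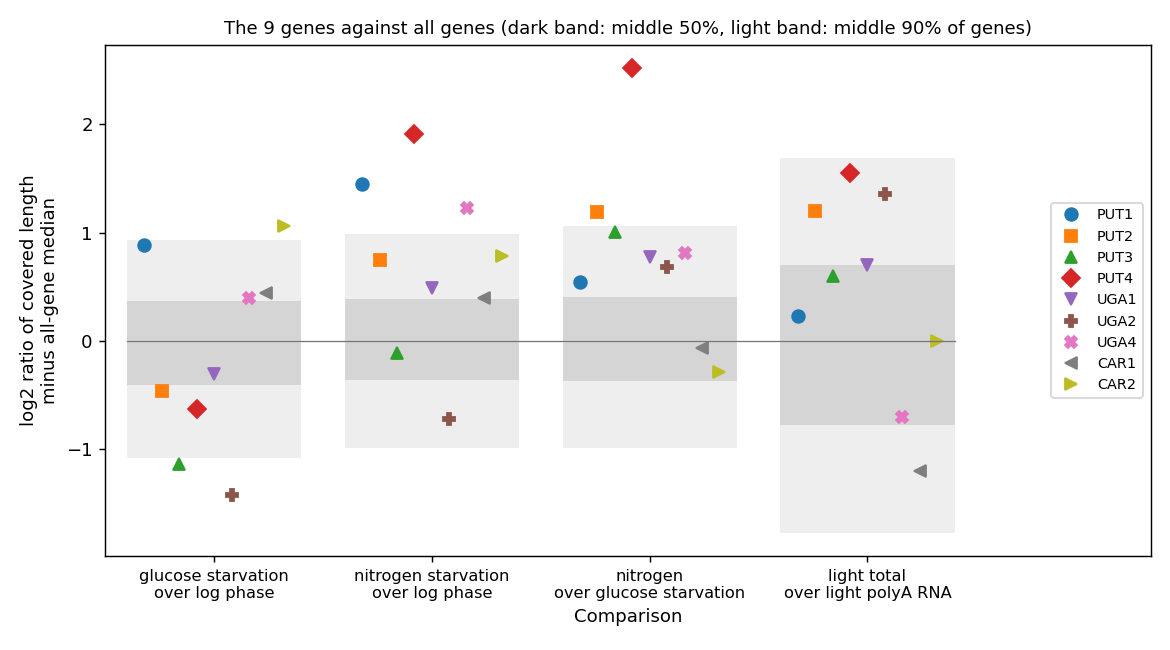
Log2 ratio of covered length less the median of all genes (y axis) for each of the 9 genes in 4 comparisons (x axis), over bands that hold the middle 50% and 90% of all genes. PUT4 was the highest after nitrogen starvation at +1.91, and UGA2 the lowest after glucose starvation at -1.42; the values of PUT4 against or in the glucose list, where it had no cluster, depend on the 20 nt added.

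The positions of the clusters after nitrogen starvation were also compared with those of the other lists. Of the 59 nitrogen clusters on the 9 genes, 27 overlapped a log-phase cluster by at least 1 nt, 45.8% (33.7 to 58.3). Over all mRNA genes this share was 73.0% (72.5 to 73.6), outside the interval of the 9 genes. The same held against the glucose list, which 32.2% (21.7 to 44.9) of the nitrogen clusters of the 9 genes and 57.3% of those of all mRNA genes overlapped. By gene, the nitrogen clusters without a log-phase counterpart numbered 8 of 9 in PUT4, 6 of 11 in PUT1, 4 of 4 in UGA4, 3 of 9 in PUT2, 3 of 6 in PUT3, 3 of 7 in UGA1, 2 of 3 in UGA2, 2 of 5 in CAR2 and 1 of 5 in CAR1. Without PUT4 and UGA4, which had 3 log-phase clusters between them, the share was 56.5% (42.2 to 69.8), with the value of all mRNA genes still outside the interval. Clusters of 1 gene share their RNA and are not independent, so these intervals are too narrow. The share also depends on how many clusters a gene has in each list. The 9 genes, with relatively more nitrogen clusters, were not matched to other genes for this. Whether their positions differed beyond these counts was not tested. After glucose starvation 72.4% (54.3 to 85.3) of the clusters of the 9 genes overlapped a log-phase cluster, against 74.0% over all mRNA genes. Read from the log-phase side, 49.1% (36.1 to 62.1) of its clusters on the 9 genes overlapped a nitrogen cluster, against 48.1% over all mRNA genes.

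Merging all 4 lists gave 131 sites on the 9 genes. Of these 88 were in 1 list, 21 in 2, 14 in 3 and 8 in all 4, and the last made up 6.11% (3.13 to 11.6) against 9.39% over all mRNA genes. The 8 were spread over PUT1, PUT2 and CAR1 with 2 each and UGA1 and CAR2 with 1 each. PUT3, PUT4, UGA2 and UGA4 had no site in all 4 lists. PUT1 shared its sites most widely, with 7 of 12 in at least 3 lists, and PUT4 had 13 of 15 in 1 list alone.

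In log-phase polyA RNA the 9 genes carried a smaller share of their clusters in the coding sequence than mRNAs as a whole. Here 27 of 53 clusters were coding, 50.9% (37.9 to 63.9), against 67.5% over all mRNA genes. A further 34.0% (22.7 to 47.4) lay past the stop codon against 24.3%, and 15.1% (7.85 to 27.1) before the start codon against 8.14%, both with the value of all mRNA genes inside the interval. After glucose and nitrogen starvation the coding shares were 44.8% (28.4 to 62.5) and 55.9% (43.3 to 67.8), where the values of all mRNA genes, 60.7% and 61.4%, lay inside the intervals. In total RNA 83.6% (72.9 to 90.6) of the clusters were coding, against 78.4% over all mRNA genes. Clusters of the same gene share their RNA and are not independent, so the intervals of these shares are too narrow. Whether the lower coding share in log-phase polyA RNA exceeds the spread between genes was not tested.

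**Figure D4:**
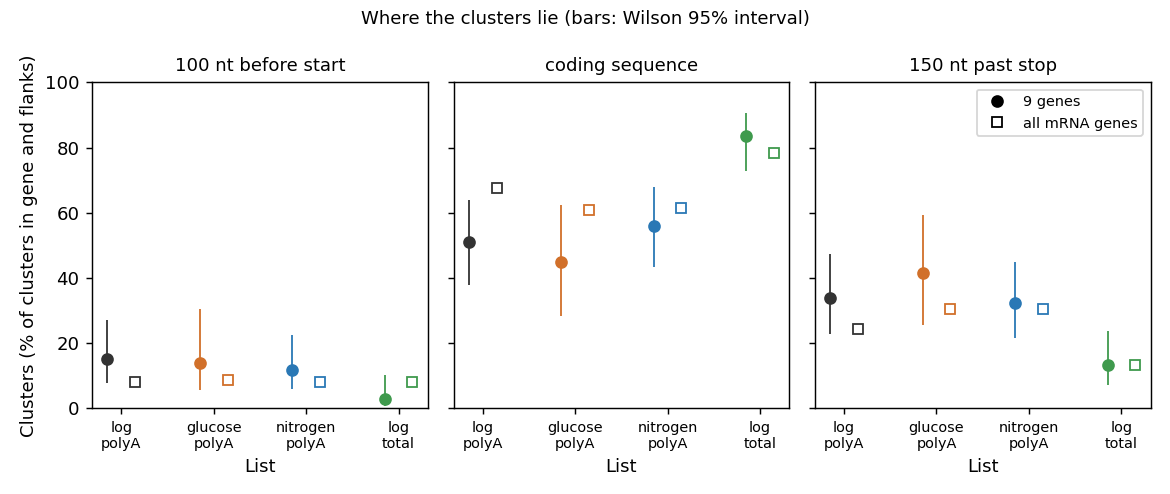
Share of clusters (y axis, percent) before the start codon, in the coding sequence and past the stop codon for each list (x axis), with filled circles for the 9 genes, open squares for all mRNA genes and bars for the 95% Wilson interval. Coding clusters made up 50.9% of those of the 9 genes in log-phase polyA RNA and 83.6% in total RNA.

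Total RNA was set against polyA RNA of the same log-phase light fraction. With 67 clusters on the 9 genes against 53, the ratio scaled by list size was 1.50 (1.03 to 2.19). Without UGA2 it was 1.26 (0.828 to 1.92), and per mRNA cluster 1.21 (0.834 to 1.77). UGA2 alone had an interval above 1, with 17 clusters against 6 and a ratio of 3.35 (1.26 to 10.4); 8.89% of 5637 genes had such an interval, so 1 of 9 is near the background. No member had an interval below 1, against 3.51% of genes. UGA2, PUT4 and PUT2 were more than 1 log2 unit above the median of all genes, at +1.36, +1.55 and +1.20, and CAR1 was below it by as much, at -1.20, where 16.6% and 19.1% of genes were past the fold above and below. With either strand UGA2 was at +0.78 and CAR1 at -0.85, and with 50 nt added PUT2 was at +0.99 and CAR1 at -0.80; CAR1 was at -0.98 with clusters narrower than 10 nt left out. Clusters of the 9 genes held 17.2% G in total RNA and 8.91% in log-phase polyA RNA, and their median width was 14 and 11 nt, differences that all mRNA clusters of the lists shared, with 16.7% and 7.37% G and 13 and 10 nt. The part of these differences between lists in the gene ratios was not tested.

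Other genes of the same metabolism, in 5 lists, were read on the same scale after nitrogen starvation. Of all 5634 genes, 4.86% stood at least 1 log2 unit above the median and 4.81% as far below it. All 9 genes for the use of allantoin and urea stood at least 1 log2 unit above the median of all genes, and their median was +1.79. By the log2 ratio of covered length, the highest were the allantoate permease gene DAL5 at +3.41, the allantoicase gene DAL2 at +2.35, the urea permease gene DUR3 at +2.15 and the allantoin permease gene DAL4 at +1.99. DAL5 had 25 clusters against 3 (13.1, 3.99 to 67.6), and the other three had 7 against 1, 8 against 2 and 11 against 4. Of the 9 arginine synthesis genes 6 were past the fold above and none below, with a median of +1.45. ARG7, for ornithine acetyltransferase, had 21 clusters against 4 (8.23, 2.78 to 33.0), ARG1, for argininosuccinate synthetase, 23 against 4 (9.01, 3.08 to 35.9), and ARG4, for argininosuccinate lyase, 18 against 7. The median for arginine synthesis was thus above that of the 9 genes described here, +0.75. Of the arginine breakdown genes CAR1 stood at +0.40 and CAR2 at +0.79. With 1 pooled list per condition, the difference between these lists and the 9 genes was not tested.

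Of 13 regulators 3 were past the fold above and none below, with a median of +0.39, where 4.86% of all genes were past it above and 4.81% below. They were DAL80, a GATA-family repressor of nitrogen-regulated genes, UGA3, the activator of the GABA genes, and GAT1, a GATA activator. DAL80 had 7 clusters against 0, a ratio of 3.66 with the 0 set at 3 clusters (exact interval from 2.26 upward). UGA3 had 16 against 8 (3.14, 1.27 to 8.46) and GAT1 had 9 against 8 (1.76, 0.604 to 5.25), an interval that included 1. UGA3 therefore stood at +1.70 where the genes it activates, UGA1, UGA2 and UGA4, stood at +0.49, -0.72 and +1.23. GLN3, the other GATA activator, was at +0.79 with 13 clusters against 10. Among 5 amino acid transporters, the general permease gene GAP1, with 20 against 9 (3.48, 1.52 to 8.69), and the arginine permease gene CAN1, with 22 against 12 (2.87, 1.36 to 6.37), were past the fold above. The amino acid permease genes AGP1, with 1 against 11 (0.143, 0.00331 to 0.980), and GNP1, with 4 against 14 (0.448, 0.107 to 1.43), were past it below. The interval of GNP1 included 1. Of 10 genes for steps before and after the 9, GDH1, a glutamate dehydrogenase that assimilates ammonium, was past the fold, with 18 against 7 (4.03, 1.61 to 11.4). ORT1, the mitochondrial ornithine transporter gene, was at +0.95, GLT1, which encodes glutamate synthase, at +0.70 and GDH3, for another glutamate dehydrogenase, at -0.85, and the list median was +0.51.

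**Figure D5:**
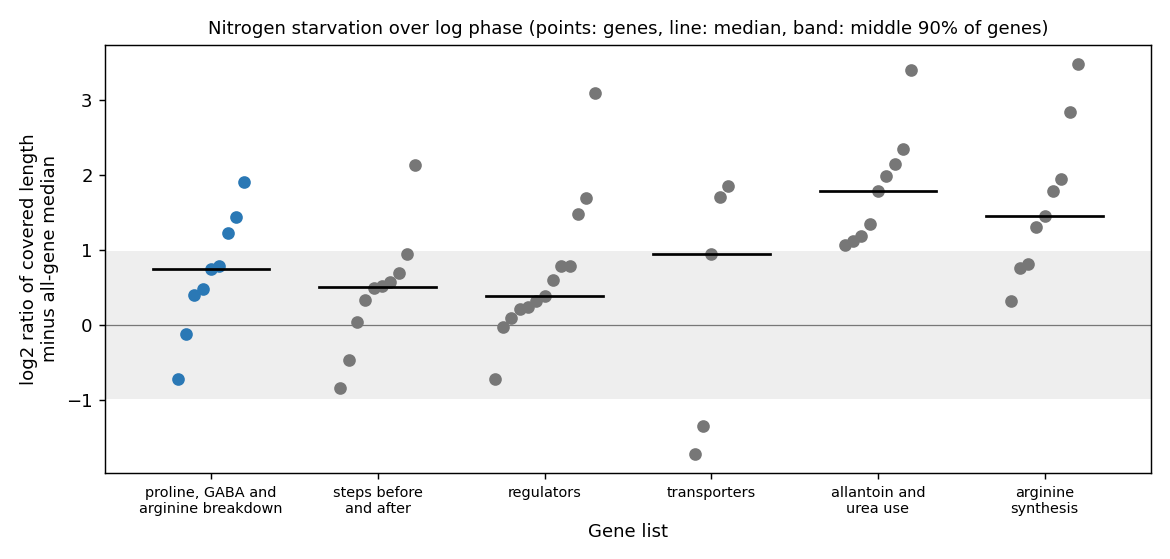
Log2 ratio of covered length after nitrogen starvation against log phase, less the median of all genes (y axis), for each gene of 6 lists (x axis), with a line at the list's median and a band for the middle 90% of genes. The 9 breakdown genes ran from -0.72 to +1.91 around a median of +0.75, and all 9 allantoin and urea genes lay above +1.

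After glucose starvation 1 gene of the 5 lists was past the fold above, against 4.19% of all genes, and 1 allantoin and 1 arginine synthesis gene were past it below, against 6.15%. The gene above was PRO1, which encodes the first enzyme of proline synthesis, at +1.20 with 2 clusters against 1 (3.66, 0.191 to 216). The medians were +0.02 for allantoin and urea use, -0.37 for arginine synthesis, -0.12 for regulators, -0.37 for transporters and +0.05 for the steps before and after. The genes with profiles most like those of the members with most clusters were found by distance over the 4 log2 levels among 4811 genes with at least 8 clusters. PUT2, PUT3 and UGA1 had 30 clusters each. The nearest to UGA1 were DDE1, COX8 and AVT7, at distances of 0.12, 0.20 and 0.20. To PUT2 they were PKP2, MET28 and ECM32, at 0.24, 0.28 and 0.29, and to PUT3 they were MIG2, POP1 and MDM38, at 0.26, 0.26 and 0.27.

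Letters in and around the clusters were read on the strand of the RNA, in each cluster with 10 nt on both sides. TGTANATA, the motif of the RNA-binding protein Puf3, was in none of the clusters of the 9 genes in any list, where 0.740% of log-phase mRNA clusters of the same widths held it. Its core TGTA was in 7 of 53 log-phase clusters, 13.2% (6.55 to 24.8) against 8.33% of mRNA clusters of the same widths, and in 8 of 59 nitrogen clusters, 13.6% (7.03 to 24.5) against 9.25%. In the glucose list TGTA was in 2 of 29 clusters, 6.90% (1.91 to 22.0) against 8.99%. In total RNA it was in 8 of 67, 11.9% (6.18 to 21.8) against 11.2%. A run of TTTTT was in 17.0% (9.20 to 29.2) of log-phase and 15.3% (8.24 to 26.5) of nitrogen clusters against 14.1% and 15.8%. All these shares were within counting error of the mRNA value. In promoters, from 250 nt before to 50 nt after the start of the coding sequence, the letters GATAAG, which GATA factors bind, were found on either strand in PUT1 and PUT2, 2 of 9 genes, and in 14.8% of all 5913 promoters. CGG and CCG with 10 bases between them, the form of sites bound by Put3, were found in 1.10% of promoters and, of the 9 genes, in PUT2. Sequence further upstream was not searched. The match is shown because it marks the one member that holds it within this window, with the CGG and CCG ends in capitals, 166 to 151 nt before the start codon.
PUT2 (chrVIII:181807-181830, plus strand): atctCGGgaagccaactCCGaagc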

How the data were processed

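Titles placed the 10 yeast gPAR-CLIP libraries in 5 groups. Per the labels' protocols, ultraviolet light of 365 nm was given in 4 doses of 150 mJ/cm2. The alignment used Bowtie 0.12.7 and build R64, per the submitters' processing notes. How clusters were called is not stated there. The files as deposited hold cluster coordinates, 1 list per group, pooled over replicates, and the score column of the light lists is 0 in every line, as deposited by the authors, so depth is unknown beyond the number of clusters.

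Each cluster was assigned on its strand to 1 gene of the RefSeq annotation of R64, gene bodies before flanks and structural RNAs before mRNA. Cluster counts per list size were compared as ratios with exact conditional binomial (Clopper-Pearson) 95% intervals, shares with Wilson intervals. The log2 ratio of covered length had 20 nt added to each length. Work used Python 3.11.15 and scipy 1.17.1. Every member is described. Of the 5 lists, up to 4 genes with the largest absolute log2 ratio are named, except 1 that is not reported here, and the reference writes 2 of their symbols as DUR12 and ARG56. The members, lists and rules were chosen with earlier results of these data known. Alternatives covered assignment, flanks, cluster width, list size, measure, strand, added length, fold and overlap.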

Additional observations from a re-analysis of the deposited data

Results flagged for a closer look

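Clusters on the strand opposite to a gene were not used in the comparisons. UGA1 had 4 such clusters across its coding sequence, outside any other gene and its flanks, in the log-phase polyA list, 4 after nitrogen starvation and 6 in total RNA, each above the 3 that a count of 0 allows. UGA1 and its flanks together had 11, 5, 6 and 7 opposite-strand clusters in the log-phase list, the 2 starved lists (glucose first) and total RNA, against 8, 3, 7 and 12 on its own strand. UGA2 had 4 across its coding sequence in the log-phase polyA list and 0 in the other 3 lists. No annotated gene lies at these clusters on their strand, flanks included.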

How the results depend on the processing

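No paired analysis was possible because each list pools both replicates, and for the same reason no replicate could be left out. Of 36 log2 values of single genes, 30 kept their sign under every alternative run. The summed ratio of nitrogen starvation to log phase included 1 with clusters of at least 10 nt (1.54) and with either strand (1.33). The ratio of nitrogen to glucose starvation did so with either strand (1.51), with flanks of 50 and 100 nt (1.56) and, chosen after seeing the data, without PUT4 (1.48). The ratio of total to polyA RNA did so with clusters of at least 10 nt (1.40), either strand (1.14), mRNA clusters as the list size (1.21), without PUT4 (1.42) and without UGA2 (1.26), and was 2.37 without flanks. The share of nitrogen clusters overlapping a log-phase cluster was 30.5% with an overlap of at least 5 nt, against 62.6% over all mRNA genes. These genes were again not matched for clusters per gene. Sites in all 4 lists numbered 3 with clusters of at least 10 nt and 3 without flanks.

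Numbers of genes past the fold are small and moved with the settings. Shares over all genes were counted only at a log2 fold of 1 with the main settings, so the numbers below have no background beside them. With the main settings the upper quartile of all genes was +0.37 after glucose starvation and +0.39 after nitrogen starvation. It was +0.41 between the starvations and +0.70 in total against polyA RNA. The lower quartiles were -0.41, -0.36, -0.37 and -0.77 in the same order of comparisons. After nitrogen starvation the genes above numbered 5 at a log2 fold of 0.5 and 0 at 2, and those below 1 at 0.5 and 1 without flanks. After glucose starvation those above numbered 2 with 5 nt added, 0 with 50 nt added, 2 at a fold of 0.5 and 0 at 2, and those below 0 with 50 nt added, 0 at a fold of 2 and 1 without flanks. Between the starvations those above numbered 5 with 5 nt added, 1 with 50 nt added, 1 with flanks of 200 and 300 nt, 7 at a fold of 0.5 and 1 at 2. In total against polyA RNA those above numbered 5 at 0.5 and 0 at 2, and those below 2 with 5 nt added, 0 with 50 nt added, 0 with clusters of at least 10 nt, 2 at 0.5 and 0 at 2. The cause was not tested. The low numbers of clusters per gene limit the precision.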
